A study of Mus musculus with 24 samples.

Results

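The genes described here are 42 interferon-stimulated genes, that is, genes whose transcription rises when a cell senses interferon. They were taken by symbol from a list chosen with earlier results of these data known. Member counts set beside shares of all genes are therefore descriptions only. Listed genes were kept where the mean raw count over all libraries was at least 10. All 42 listed genes met that rule, out of 55487 genes in the table, and all 42 also passed the filter on low counts applied before testing. The lowest mean counts were those of Ifit3b (42) and Ifi44 (110), and no listed gene fell under the minimum. Bone marrow from mice of both sexes aged 8 to 10 weeks was cultured with GM-CSF to give dendritic cells (BMDCs), and poly(A) RNA of the cells in suspension was sequenced on culture days 7, 8, 9 and 10. KO cultures were ARPC4 Flox/Flox CD11c-Cre +/-, so that the Arp2/3 subunit gene Arpc4 is deleted in cells that express CD11c. WT cultures were ARPC4 Flox/Flox CD11c-Cre -/-, so both genotypes carried the floxed allele and only KO carried Cre. Each of the 8 groups held 3 libraries, labelled with the numbers of 3 mice (63, 65 and 66 for WT; 64, 67 and 68 for KO). The study asked how differentiation of control and Arpc4-deleted cells compares over these days.

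Interferons bind receptors at the cell surface, which activate JAK kinases and transcription factors of the STAT and IRF families, and these drive a broad set of antiviral genes. The products include sensors of viral nucleic acid, enzymes that block translation or degrade RNA, and feedback regulators that dampen the response. Dendritic cells use this programme both to resist infection and to shape their maturation. In bulk RNA, a higher level in each cell and a larger share of cells with the gene on cannot be told apart.

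Library totals lay between 19952000 and 31049800 counts (rounded). Levels are given as CPM, read counts relative to a library's total as scaled by the TMM method, and always in the order of mice 63, 65 and 66 (WT) or 64, 67 and 68 (KO). Differences are log2 fold changes with their standard error from edgeR's quasi-likelihood test, and a gene is called where its Benjamini-Hochberg adjusted p over 14535 genes is at most 0.05. Counts over Arpc4 were lower in KO on each day, by log2 fold changes of -0.19, -0.19, -0.18 and -0.28, and none was called (adjusted p 0.177, 0.690, 0.433 and 0.225), while counts summed per mouse number gave -0.21 (adjusted p 0.0381). The Y-linked gene Ddx3y was high in mouse 63 on every day but in different KO numbers (64 on days 7 and 9, 68 on day 8, 67 on day 10), so a KO number cannot be taken as 1 animal over the days. Tests within a day or between days do not use the numbers, while sums per mouse number do, the Arpc4 value included. Once the KO numbers were exchanged, as described below, the sums called few of all genes. Dendritic cell transcripts were present throughout, with 17759 to 48613 counts of Itgax, which encodes CD11c.

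Almost every member was higher in KO than in WT on every day. On day 7, 12 of the 42 were called higher in KO and none lower, against 1.45% of all tested genes called in either direction and 0.832% called higher. Their median log2 fold change was 0.56, 0.27, 0.55 and 0.26 on days 7, 8, 9 and 10, while the median over all tested genes stayed between -0.01 and 0.00. A positive value was fitted for 41, 40, 42 and 38 of the 42 on the respective days, and for 36 on all 4 days, as for 18.2% of all genes. On days 8, 9 and 10 the edgeR quasi-likelihood test called no member, where 0.00688%, 0.00688% and 0.0138% of all genes were called. An unadjusted p under 0.05 was reached by 33, 6, 36 and 19 members on days 7 to 10, against 15.7%, 5.91%, 8.15% and 7.3% of all genes. DESeq2's Wald test called 23 members on day 7, 15 on day 9 and 0 on days 8 and 10, among 523, 98, 17 and 43 genes called on days 7, 9, 8 and 10. The fit pools the spread over all days, and leaving out a mouse number removed its libraries on all 4 days and with them residual degrees of freedom. Here and below, a fit without a mouse lacks the libraries with that number, which for KO need not be 1 animal. The day 7 count was then 1 without mouse 63, 23 without 64, 1 without 65, 0 without 66, 4 without 67 and 6 without 68, and the count over all genes moved with it, from 211 to 42, 352, 21, 11, 97 and 138. With limma voom and the mouse number as a replicate block, 7 of the 12 kept their call, among 145 genes called. Zbp1, Oas3, Dhx58, Cmpk2 and Rtp4 had limma adjusted p from 0.0659 to 0.0798. Test and block changed together here, and the correlation estimated within mouse numbers was 0.0046. Which of them lowered the count was not tested.

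**Figure D1:**
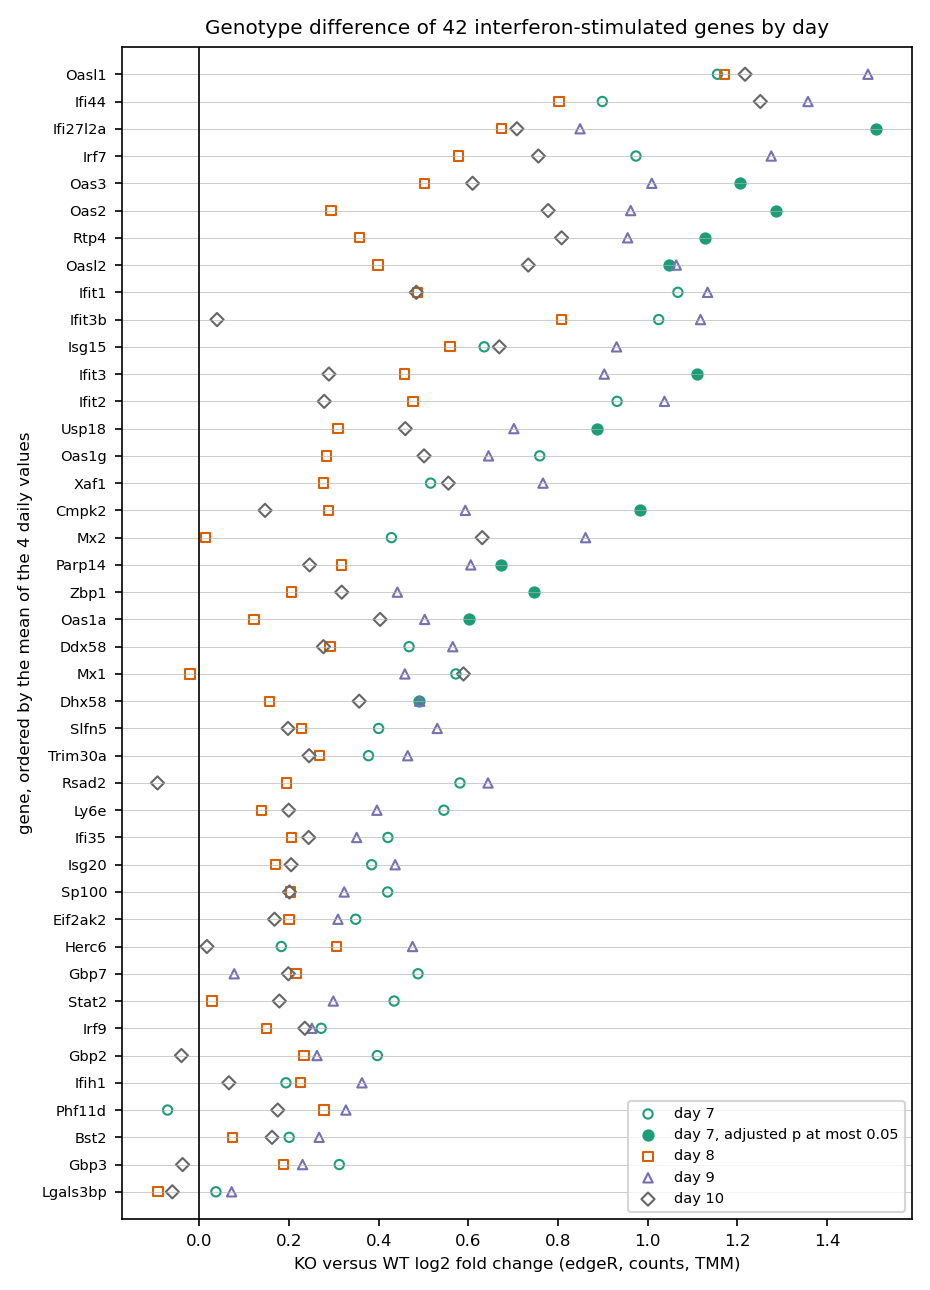
Each of the 42 genes has 4 symbols, the KO versus WT log2 fold change on days 7 to 10 (horizontal axis), with genes ordered by the mean of the 4 values and filled symbols for an adjusted p of at most 0.05. Filled symbols occur on day 7 alone, for 12 genes, and the mean difference runs from 1.26 for Oasl1 to -0.01 for Lgals3bp.

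Seen library by library, KO and WT separated most often on days 7 and 9. All 3 KO libraries lay above all 3 WT libraries for 32, 10, 35 and 13 members on days 7 to 10, against 11.9%, 4.4%, 7.62% and 5.47% of all tested genes. For no member did all KO libraries lie below all WT libraries on any day, while 2067, 725, 940 and 722 of the 14535 genes did on days 7 to 10. Oasl1, Oas2 and Xaf1 were separated on all 4 days, as were 0.289% of all genes.

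Promoters of the members were looked up in RefSeq (GRCm38.p6), which held an entry for 32 of the 42, each entry covering 250 bases before to 50 bases after a start. A gene with several starts was counted once, as holding a motif if any of its entries did, so more sequence was searched for such genes. The motif TTTC, any 2 bases, TTTC, read on both strands so that GAAA, any 2 bases, GAAA counts as well, is the core to which STAT-IRF9 complexes and IRFs are known to bind. It occurred in 18 of the 32 (56.2%), against 1079 of 27025 genes with a promoter entry (3.99%), and 8 members held at least 2 matches (25%, against 0.266%). The shorter motif ttcnnngaa, the STAT dimer site, occurred in 7 (21.9%, against 9.55%). The stretches shown here belong to Isg15, which held 3 matches, to neighbouring Ifit and Oas genes, to Gbp7 and Rsad2, whose day courses are described with the results, and to Oasl1, the gene with the largest mean daily difference, which had no match. Capitals mark the matches to the first motif on either strand. Lines give the gene, its position with the strand it is transcribed from, and the bases 5′ to 3′ along that strand.
Isg15, chr4:156200860-156200911, reverse: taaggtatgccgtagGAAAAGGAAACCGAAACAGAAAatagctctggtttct
Ifit1, chr19:34640770-34640828, forward: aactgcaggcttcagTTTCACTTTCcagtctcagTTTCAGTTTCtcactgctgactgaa
Ifit3, chr19:34583358-34583431, forward: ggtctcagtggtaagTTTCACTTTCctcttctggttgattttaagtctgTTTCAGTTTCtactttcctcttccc
Oas3, chr5:120777710-120777749, reverse: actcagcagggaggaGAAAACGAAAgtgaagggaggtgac
Oas1a, chr5:120907526-120907560, reverse: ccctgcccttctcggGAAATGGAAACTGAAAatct
Oas1g, chr5:120887614-120887646, reverse: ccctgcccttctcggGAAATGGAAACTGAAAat
Gbp7, chr3:142530268-142530307, forward: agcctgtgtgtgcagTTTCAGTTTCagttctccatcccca
Rsad2, chr12:26456548-26456587, reverse: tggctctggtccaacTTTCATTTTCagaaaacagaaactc
Oasl1, chr5:114923140-114923239, forward: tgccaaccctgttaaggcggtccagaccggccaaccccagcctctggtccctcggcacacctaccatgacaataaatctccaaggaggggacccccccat
Isg15 held 3 overlapping matches, at 78, 72 and 66 bases before its start. Ifit3 and Ifit3b held the same 74 bases, at chr19:34583358-34583431 and chr19:34607754-34607827. Members with a match had a median of 0.34 for the mean daily KO versus WT log2 fold change (18 genes), those without one 0.40 (14 genes, Oasl1, Ifi44 and Irf7 among them) and those with no entry 0.47 (10 genes). A match is a description of these letters only.

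Among the sensors, 2 of 4 were called higher in KO on day 7, Zbp1 and Dhx58. Zbp1, which senses Z-form nucleic acid and can trigger cell death, stood on day 7 at 15.1, 16.2 and 16.3 CPM in WT and at 19.8, 34.8 and 25.4 CPM in KO. The groups did not overlap, and the log2 fold change was 0.75 ± 0.17 (edgeR adjusted p 0.0326). Dhx58, the RNA helicase LGP2 that regulates the other RNA sensors, stood at 27.7, 30.7 and 28.2 CPM in WT and at 35.8, 43.4 and 42.5 CPM in KO. All KO libraries were again above all WT libraries, by a log2 fold change of 0.49 ± 0.12 (edgeR adjusted p 0.0478). Ddx58, which encodes the RNA sensor RIG-I, had a value of similar size (0.47 ± 0.12) that was not called (edgeR adjusted p 0.0616). Ifih1, which encodes the RNA sensor MDA5, had the smallest day 7 difference of the 4, 0.19 ± 0.13 (edgeR adjusted p 0.493).

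None of the 3 transcription factors was called on any day, although Irf7 was among the 4 largest of the 42 by its mean daily difference. Irf7 is the factor that amplifies interferon transcription. It stood at 13.7, 20.7 and 15 CPM in WT and at 20.6, 44.8 and 31.6 CPM in KO on day 7, where the lowest KO library lay just under the highest WT library. On day 9 it stood at 17.7, 17.7 and 18.1 CPM in WT and at 35.3, 56.7 and 37.4 CPM in KO, with no overlap. These differences were 0.97 ± 0.26 on day 7 and 1.28 ± 0.26 on day 9, a 2.42-fold higher level on day 9 (edgeR adjusted p 0.0651 and 0.145). Irf7 shares its position with Phrf1 on the opposite strand, whose counts were 235% of those of Irf7. Whether the counting used strand is not given in the sources used here. Phrf1 itself had a log2 fold change of 0.05 on day 7 (edgeR adjusted p 0.782).

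Irf9 and Stat2, parts of a complex that binds interferon-stimulated promoters, had smaller values. Stat2 stood at 67.5, 77.1 and 62.9 CPM in WT and at 87.3, 109 and 84.2 CPM in KO on day 7, without overlap, with a log2 fold change of 0.43 ± 0.14 (edgeR adjusted p 0.117). Irf9 stood at 44.9, 50.3 and 48.5 CPM in WT and at 51.4, 65.0 and 57.1 CPM in KO, also without overlap, with 0.27 ± 0.10 (edgeR adjusted p 0.17). The gene Rnf31 overlaps Irf9 on the same strand, with counts at 70.5% of those of Irf9.

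In the ISG15 system, the ubiquitin-like tag and its enzymes, Usp18 was called on day 7. Usp18 removes ISG15 from proteins and restrains signalling from the interferon receptor. It stood at 14.3, 18.9 and 14.1 CPM in WT and at 26.4, 31.2 and 29.6 CPM in KO on that day. The 3 KO libraries were close together and all above WT, with a log2 fold change of 0.89 ± 0.17 (edgeR adjusted p 0.0148). Isg15 itself stood at 7.47, 9.46 and 7.62 CPM in WT and at 9.86, 16 and 12.2 CPM in KO, separated by a narrow margin (0.64 ± 0.24, edgeR adjusted p 0.204). Its largest difference was on day 9, with 7.91, 8.05 and 7.59 CPM in WT and 11.9, 20.3 and 12.6 CPM in KO (0.93 ± 0.24, edgeR adjusted p 0.217). Herc6, the ligase that attaches ISG15 in mice, had values of 0.18, 0.31, 0.48 and 0.02 on days 7 to 10. A gene annotated in GENCODE M21, AC151275.1, shares 95.2% of aligned bases with Isg15. No gene of that name is among the deposited ones, so whether it took reads from Isg15 cannot be seen.

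The IFIT family, RNA-binding proteins that block translation of viral RNA, had medians of 1.05, 0.48, 1.08 and 0.28 on days 7 to 10, and 1 of 4 was called on day 7. Ifit3 stood at 7.43, 7.54 and 5.90 CPM in WT and at 12.3, 20.2 and 12.6 CPM in KO on day 7. The groups did not overlap, and the log2 fold change was 1.11 ± 0.23 (edgeR adjusted p 0.0223). Ifit1 stood at 6.10, 7.96 and 5.90 CPM in WT and at 10.2, 17.8 and 13.8 CPM in KO, also without overlap, with 1.07 ± 0.29 (edgeR adjusted p 0.0656). Ifit2 and Ifit3b gave 0.93 ± 0.30 and 1.02 ± 0.45 (edgeR adjusted p 0.125 and 0.275). The 4 genes lie in a row on chromosome 19, from 34550694 to 34650009 (GRCm38, GENCODE M21, forward strand). Ifit3 and Ifit3b share 97.8% of aligned transcript bases, like the promoter stretch printed for Ifit3, and reads could be split between them. At 0.530 to 3.82 CPM in the KO libraries and 0.510 to 2.26 CPM in the WT libraries, Ifit3b was also the member with the fewest counts.

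The OAS family held the most day 7 calls, 4 of 6 members (Oas2, Oas1a, Oasl2 and Oas3), and its medians were 1.10, 0.35, 0.99 and 0.67 on days 7 to 10. Its enzymes sense double-stranded RNA and make oligoadenylates that activate RNase L. Oas2 had the smallest adjusted p of all 42 members on day 7. It stood at 13.7, 17.6 and 16.8 CPM in WT and at 29.2, 52.9 and 34.9 CPM in KO. Every KO library was well above every WT library, with a log2 fold change of 1.29 ± 0.23, or 2.44-fold (edgeR adjusted p 0.0091). On day 9 Oas2 stood at 26.7, 27.6 and 25.9 CPM in WT and at 50.4, 62.1 and 43.6 CPM in KO, again without overlap (0.96 ± 0.23, edgeR adjusted p 0.21).

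Oasl1, a family member without synthetase activity, had the largest mean daily difference of the 42, 1.26 on the log2 scale or 2.39-fold. It stood at 1.93, 4.03 and 3.55 CPM in WT and at 4.19, 9.77 and 7.16 CPM in KO on day 7. On day 8 the WT libraries held 4.72, 4.98 and 3.79 CPM and the KO libraries 13.0, 10.5 and 6.89 CPM. Day 10 gave 3.17, 2.16 and 2.18 CPM in WT and 9.33, 3.71 and 4.42 CPM in KO. The groups did not overlap on any day, yet the daily values of 1.16 ± 0.40, 1.17 ± 0.39, 1.49 ± 0.40 and 1.2 ± 0.40 were not called (edgeR adjusted p 0.159, 0.610, 0.217 and 0.411). Oasl1 is thus the leading member by size and not by adjusted p, and its low counts came with wide errors.

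Oas3 stood at 24.7, 30.9 and 24 CPM in WT and at 38.3, 87.7 and 57.5 CPM in KO on day 7, a log2 fold change of 1.21 ± 0.29 (edgeR adjusted p 0.0419). Oasl2 stood at 27.9, 38.6 and 31.3 CPM in WT and at 45.4, 90.5 and 66.0 CPM in KO, 1.05 ± 0.23 (edgeR adjusted p 0.0291). Oas1a stood at 31.8, 38.8 and 34.1 CPM in WT and at 42.3, 63.6 and 52.8 CPM in KO, 0.60 ± 0.13 (edgeR adjusted p 0.0246). None of the 3 overlapped between genotypes, and mouse 67 was the highest KO library for each. Oas1g gave 0.76 ± 0.22 (edgeR adjusted p 0.0951) and shares 97.6% of aligned bases with Oas1a, with which it also shares the promoter bases printed in capitals. The genes form 2 clusters on chromosome 5, Oasl2 and Oasl1 from 114896936 to 114937915 on the forward strand and Oas2, Oas3, Oas1g and Oas1a from 120730333 to 120907521 on the reverse strand.

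Among the GTPases, none of the 5 was called between genotypes on any day. Mx1 and Mx2, dynamin-like proteins that trap viral components, had day 7 values of 0.57 ± 0.16 and 0.43 ± 0.25 (edgeR adjusted p 0.0804 and 0.409). Mx2 is annotated as a polymorphic pseudogene and shares 94.8% of 920 aligned bases with Mx1, whose counts were 1194% of its own, so its values are uncertain. On day 8 they were at -0.02 and 0.01, and on day 10 at 0.59 and 0.63. Mx1 stood on day 10 at 58.7, 49.7 and 38.8 CPM in WT and at 88.0, 66.3 and 67.0 CPM in KO, without overlap, the smallest adjusted p of any member on that day (0.285, edgeR). Gbp2, Gbp3 and Gbp7, guanylate-binding proteins that attack the vacuoles of intracellular pathogens, ranged from -0.04 to 0.49 over the days.

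Of the 9 other antiviral effectors, Parp14 and Cmpk2 were called higher in KO on day 7. Parp14, an ADP-ribosyltransferase, stood at 107, 113 and 94.9 CPM in WT and at 161, 184 and 157 CPM in KO, with no overlap and a log2 fold change of 0.67 ± 0.13 (edgeR adjusted p 0.0148). Cmpk2, a mitochondrial nucleotide kinase, stood at 6.22, 7.49 and 6.33 CPM in WT and at 10.4, 17.1 and 12.1 CPM in KO, with no overlap and 0.98 ± 0.21 (edgeR adjusted p 0.0246). Its neighbour on chromosome 12, Rsad2, which encodes viperin, had 0.58 ± 0.22 on day 7 and -0.09 ± 0.22 on day 10 (edgeR adjusted p 0.189 and 0.97). Ly6e, a surface protein that limits viral entry, gave 0.55 ± 0.15 on day 7 (edgeR adjusted p 0.0656). The kinase PKR (Eif2ak2), the exonuclease Isg20, Trim30a and Slfn5 had day 7 values between 0.35 and 0.40. Bst2, the tetherin that holds budding virus at the membrane, was among the 3 members with the smallest mean daily difference (0.18).

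Ifi27l2a and Rtp4 were called among the 8 remaining induced genes. Ifi27l2a encodes a small interferon-induced protein, and it had the largest called KO versus WT value. It stood on day 7 at 15.1, 21.3 and 19.5 CPM in WT and at 29.6, 80.5 and 48.9 CPM in KO. The KO libraries were spread over a wide range but all exceeded WT, with a log2 fold change of 1.51 ± 0.30, or 2.85-fold (edgeR adjusted p 0.016). Rtp4, a chaperone of receptor transport, stood at 9.43, 16.6 and 12.2 CPM in WT and at 17.6, 37.2 and 28.4 CPM in KO, 1.13 ± 0.27 (edgeR adjusted p 0.0419). Its lowest KO library exceeded its highest WT library by a small margin.

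Ifi44 ranked second by mean daily difference (1.08) and was not called on any day. It stood at 1.93, 2.57 and 1.5 CPM in WT and at 2.39, 5.31 and 3.47 CPM in KO on day 7, where the groups overlapped, with 0.90 ± 0.46 (edgeR adjusted p 0.352). Xaf1, which binds an inhibitor of cell death, stood at 11.3, 13.6 and 11.7 CPM in WT and at 15.2, 20.7 and 16.6 CPM in KO. Its separation held on all 4 days, with values of 0.52, 0.28, 0.77 and 0.56 (edgeR adjusted p 0.11, 0.875, 0.145 and 0.308). Ifi35 and the nuclear body protein gene Sp100 both had 0.42 on day 7. At the other end, the secreted glycoprotein gene Lgals3bp had the smallest mean daily difference of all members, -0.01, with 634, 789 and 698 CPM in WT and 664, 702 and 809 CPM in KO on day 7. Lgals3bp overlapped between genotypes on that day, and Gbp3 (0.17) and Bst2 (0.18) followed it from the bottom.

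**Figure D2:**
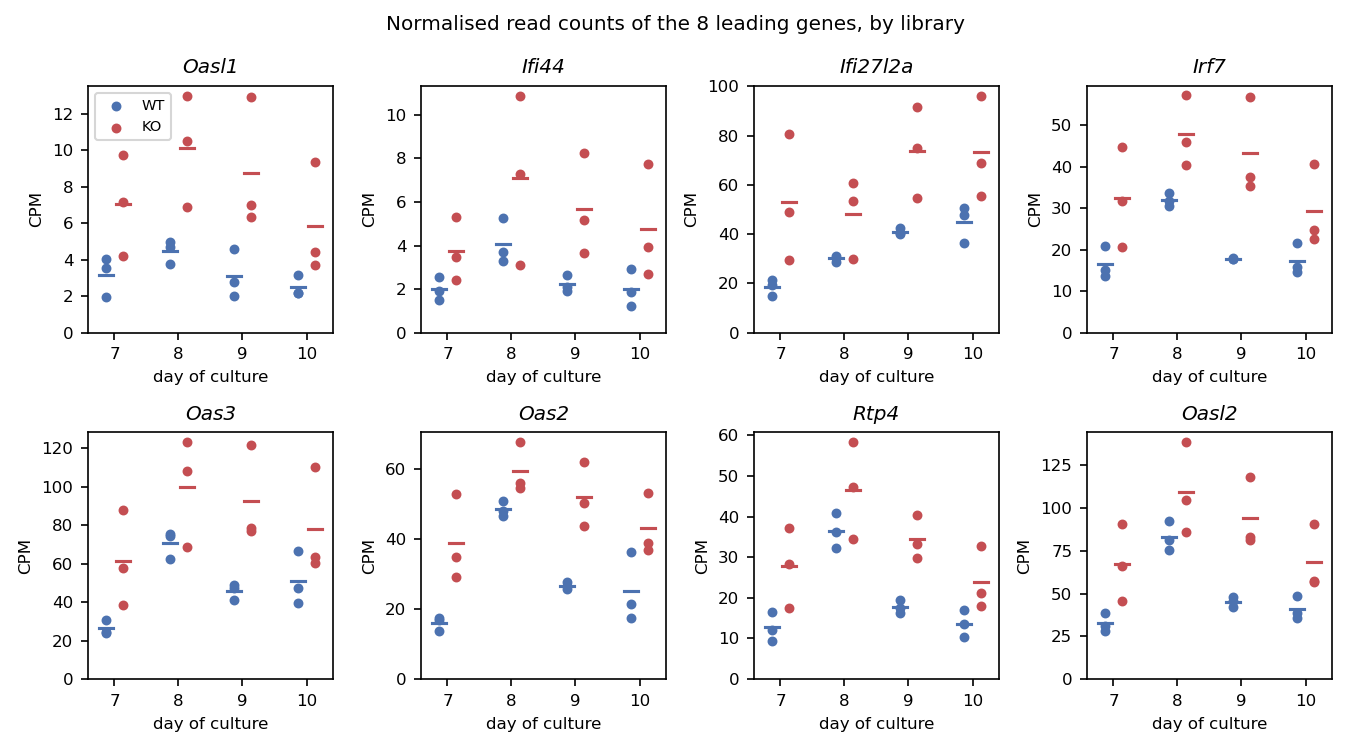
CPM (vertical axis, starting at 0) of the 8 genes with the largest mean daily KO versus WT log2 fold change, by culture day; points are single libraries, 3 per group, and short lines are group means. KO means exceeded WT means in every panel and day, and the KO points spread more widely, as for Ifi27l2a on day 7 with 29.6 to 80.5 CPM in KO and 15.1 to 21.3 CPM in WT.

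On each day a single KO library held the highest value of most members: mouse 67 on days 7 and 9 (36 and 41 of the 42) and mouse 64 on days 8 and 10 (37 and 40). In WT, mouse 65 was highest for 35 members on day 7 and 25 on day 8, and mouse 63 for 36 on day 10. On day 9 no WT library was highest for most members, with 14, 18 and 10 for mice 63, 65 and 66. On day 7 the mean log2 CPM of the 42 genes was 5.11 ± 0.271 (KO) and 4.48 ± 0.157 (WT), and on day 9 it was 5.34 ± 0.251 and 4.72 ± 0.0419 (SD, n = 3 each). On day 8 it was 5.51 ± 0.247 and 5.22 ± 0.0971, and on day 10 5.16 ± 0.312 and 4.81 ± 0.217. These levels did not overlap between genotypes on days 7 and 9 and did overlap on days 8 and 10.

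The KO library with high Ddx3y had the lowest mean of the members among the KO libraries on each day. With the high-Ddx3y libraries alone, KO and WT stood at 4.83 and 4.39 on day 7 and at 5.27 and 5.21 a day later. On day 9 they stood at 5.18 and 4.70, and on day 10 KO was below WT, at 4.95 and 5.06. Among the other libraries, both KO values exceeded both WT values on every day, from 5.38 and 5.10 against 4.66 and 4.40 on day 7 to 5.52 and 5.02 against 4.64 and 4.74 on day 10. Without the 8 high-Ddx3y libraries, the median difference of the members was 0.59, 0.36, 0.62 and 0.50 on days 7 to 10, and edgeR called 13, 0, 0 and 0 members, among 322, 1, 2 and 3 genes.

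**Figure D3:**
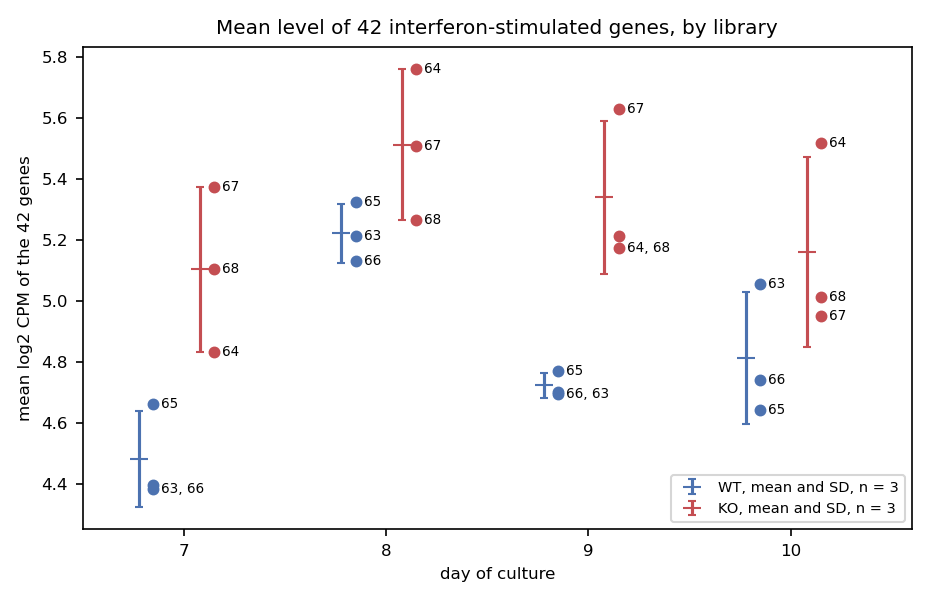
Mean log2 CPM of the 42 genes (vertical axis) in each of the 24 libraries by culture day, labelled with the mouse number; bars show the group mean and SD of 3 libraries. KO libraries all lie above WT libraries on days 7 and 9, and the groups overlap on days 8 and 10.

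With counts summed per mouse number over the 4 days (3 sums against 3), edgeR called 24 of the 42 higher in KO and none lower, against 4.13% of all genes called in either direction and 2.56% called higher. Oasl1 led with 1.25 ± 0.16 (edgeR adjusted p 0.0202) and Ifi27l2a had the smallest adjusted p (0.91 ± 0.08, edgeR adjusted p 0.00735). The test rests on the KO numbers, and Ddx3y was not high in the same KO number on each day. The KO numbers were also exchanged on days 8 and 10 so that high Ddx3y stayed with number 64, with 67 and 68 left as labelled on days 7 and 9. In each of the 4 orders this allows, edgeR called 0 members and 1 to 5 of all genes. Leaving out a mouse number gave 11 without 63, 1 without 64, 5 without 65, 6 without 66, 4 without 67 and 34 without 68. Then 233, 10, 47, 91, 54 and 1084 of all genes were called instead of 600. A fit to all 24 libraries with the mouse number as a replicate block called 32 members of 1245 genes. With the exchanged numbers it called 28, 27, 20 and 25 members of 456, 531, 298 and 436 genes. The correlation estimated within numbers was 0.0046 as labelled and 0.161, 0.137, 0.230 and 0.163 in the exchanged orders. The fit with labelled numbers thus treated the libraries as nearly independent.

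Most members had their highest group mean on day 8 in both genotypes. In WT, 28 members rose and 1 fell from day 7 to day 8, against 21.5% of all genes called higher, 22% called lower and 43.4% in either direction. In KO, 19 rose and 2 fell, against 21.1%, 20.9% and 42%. Phf11d was the gene that fell in WT (-0.59 ± 0.24, edgeR adjusted p 0.0489), and Gbp3 (-0.48 ± 0.16) and Lgals3bp (-0.31 ± 0.09) fell in KO (edgeR adjusted p 0.0196 and 0.0118). Under 14 alternatives Phf11d kept its call in 5 and lost it in 9, while Gbp3 and Lgals3bp kept theirs in 12 and 10. All 19 that rose in KO were among the 28 that rose in WT, and the same overlap was not counted over all genes. The highest of the 4 group means was on day 8 for 33 members in WT and 32 in KO, against 27.8% and 28.1% of all genes. For 31 members it was on day 8 in both genotypes, which was likewise not counted over all genes. Without mouse 64, the KO count was 8 that rose and 3 that fell, among 4662 genes called.

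Gbp7 had the largest rise in both genotypes. Its WT libraries went from 20.6, 20.2 and 15.9 CPM on day 7 to 55.8, 77.1 and 62.7 CPM on day 8, and its KO libraries from 26.9, 30.4 and 22.2 to 83.5, 89.7 and 53.7 CPM. The days did not overlap in either genotype, with log2 fold changes of 1.79 ± 0.20 and 1.51 ± 0.20 (edgeR adjusted p 8.55e-07 and 5.22e-06). Usp18 followed with 1.61 ± 0.17 in WT and 1.04 ± 0.17 in KO (edgeR adjusted p 3.74e-07 and 4.93e-05). In WT, Oas2 rose by 1.60 ± 0.23, Rtp4 by 1.52 ± 0.27 and Zbp1 by 1.46 ± 0.17 (edgeR adjusted p 1.41e-05, 0.000133 and 9.6e-07). Ifi27l2a was 1 of 7 members whose highest WT group mean was on day 10: its WT libraries held 31.2, 28.8 and 30.4 CPM on day 8, 40.1, 42.5 and 40.3 on day 9 and 47.8, 36.5 and 50.5 on day 10. Its change from day 7 to day 10 in WT was 1.27 ± 0.30 (edgeR adjusted p 0.00221).

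From day 8 to day 9, 13 members fell in WT and none rose, against 2.34% of all genes called lower, 3.06% called higher and 5.4% called in either direction. This change and the preceding one share the day 8 libraries, and 11 of the 13 had risen from day 7 to day 8. Ifit1 fell most, from 16.9, 21.4 and 15.7 CPM to 6.89, 6.98 and 6.54 CPM, by 1.40 on the log2 scale (SE 0.29, edgeR adjusted p 0.00925). The days were well apart for Ifit1, and for Parp14, which had the smallest adjusted p and went from 175, 212 and 178 to 113, 112 and 116 CPM (-0.73 ± 0.13, edgeR adjusted p 0.00461). Rtp4, Rsad2, Ifit3, Oasl2, Mx2, Isg15, Oas2, Cmpk2, Slfn5, Xaf1 and Oas1a fell by values from -1.03 to -0.45. The count was 0 without mouse 63, 65 or 66, when 45, 38 and 17 of all genes were called. It was 20 without 67 and 4 without the libraries high in Ddx3y, among 1657 and 565 genes. In KO, edgeR called no member from day 8 to day 9 (2.33% of all genes were called). There 8 had an unadjusted p under 0.05 (18.7% of all genes did), and DESeq2 called 1, among 898 genes.

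From day 9 to day 10, the genes that rose in WT were Gbp3 (0.92, edgeR adjusted p 0.00484) and Gbp2 (0.86, edgeR adjusted p 0.0154), against 1.18% of all genes called higher, 2.42% called lower and 3.6% called in either direction. Gbp3 went from 18.1, 18.4 and 22.2 to 38.9, 35.2 and 36.9 CPM, and Gbp2 from 38.2, 38.1 and 42.2 to 86.7, 57.5 and 71.0 CPM. The days did not overlap for either gene. Neither was called without mouse 63 or without mouse 65, when 0 and 29 of all genes were called. In KO, edgeR called no member (0.0963% of all genes), 7 had an unadjusted p under 0.05 (12% of all genes) and DESeq2 called 1, among 207 genes. Without mouse 67, edgeR called 4 in KO, among 2099 genes.

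Between the first and last day, 16 members rose and 2 fell in WT, against 18.9% and 18.1% of all genes (37% in either direction), and 7 rose and 4 fell in KO, against 19.7% and 17.1% (36.8%). Gbp7 reached 95.6, 78.0 and 63.1 CPM in WT and 114, 72.7 and 85.2 CPM in KO on day 10, rises of 2.06 ± 0.21 and 1.77 ± 0.20 from day 7 (edgeR adjusted p 4.54e-07 and 1.87e-06). Usp18 rose by 1.25 ± 0.17 and 0.83 ± 0.17, Gbp2 by 1.07 ± 0.19 and 0.64 ± 0.18, and Stat2 by 0.89 ± 0.14 and 0.64 ± 0.14 in WT and KO. Mx1, with 0.69 ± 0.16 and 0.71 ± 0.16, rose by nearly the same amount in both. All 7 that rose in KO had risen in WT, an overlap not counted over all genes. Without mouse 63 the WT counts were 7 and 1, among 3539 genes called. The KO counts were 4 and 10 without mouse 64 and 13 and 4 without mouse 67, among 3200 and 5789 genes.

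Fewer members fell from day 7 to day 10, 2 in WT and 4 in KO. In KO, Ifit3 went from 12.3, 20.2 and 12.6 to 10.7, 7.62 and 7.20 CPM and Rsad2 from 44.5, 52.2 and 55.2 to 35.9, 30.2 and 23.1 CPM, with no overlap between the days. The changes were -0.82 ± 0.23 and -0.77 ± 0.22 (edgeR adjusted p 0.00784 and 0.00829). The same changes in WT were 0.00 ± 0.22 and -0.09 ± 0.22 (edgeR adjusted p 1 and 0.77). The difference between the genotypes in this change was -0.82 ± 0.33 for Ifit3 and -0.67 ± 0.30 for Rsad2 and was not called (edgeR adjusted p 0.693 and 0.769). The IFIT family had medians of 0.15 in WT and -0.58 in KO for this change, and Ifit3b had 0.03 ± 0.47 and -0.96 ± 0.44 (edgeR adjusted p 0.974 and 0.0932). Slfn5 fell in KO (-0.60 ± 0.16, edgeR adjusted p 0.00596) and had -0.40 ± 0.16 in WT (edgeR adjusted p 0.0572). Lgals3bp fell in both, by -0.36 ± 0.09 in WT and -0.46 ± 0.09 in KO (edgeR adjusted p 0.00516 and 0.000821), and Phf11d, a PHD finger gene, fell in WT (-0.76 ± 0.24, edgeR adjusted p 0.0165). Oasl1 had -0.33 ± 0.42 in WT and -0.27 ± 0.38 in KO, neither called.

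The falls from day 7 were not called with limma on log2(TPM + 1), an alternative that changes the unit and the test together. On it the median over all genes shifted upward by 0.165 in WT and 0.172 in KO from day 7 to day 8, and by 0.21 and 0.249 from day 7 to day 10. There 31 members rose in WT and 27 in KO from day 7 to day 8, when 6803 and 6693 of the 14535 genes were called in either direction. From day 7 to day 10, 21 rose in WT and 13 in KO, when 6877 and 7499 genes were called, and no member was called lower in any of the 4. From day 8 to day 9 in WT, 4 members were still called lower, among 521 genes called. The share of called genes that were higher went from 49.4% to 74.7% (WT) and from 50.3% to 75.7% (KO) for day 8, and from 51.1% to 84.4% and from 53.6% to 85.9% for day 10.

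**Figure D4:**
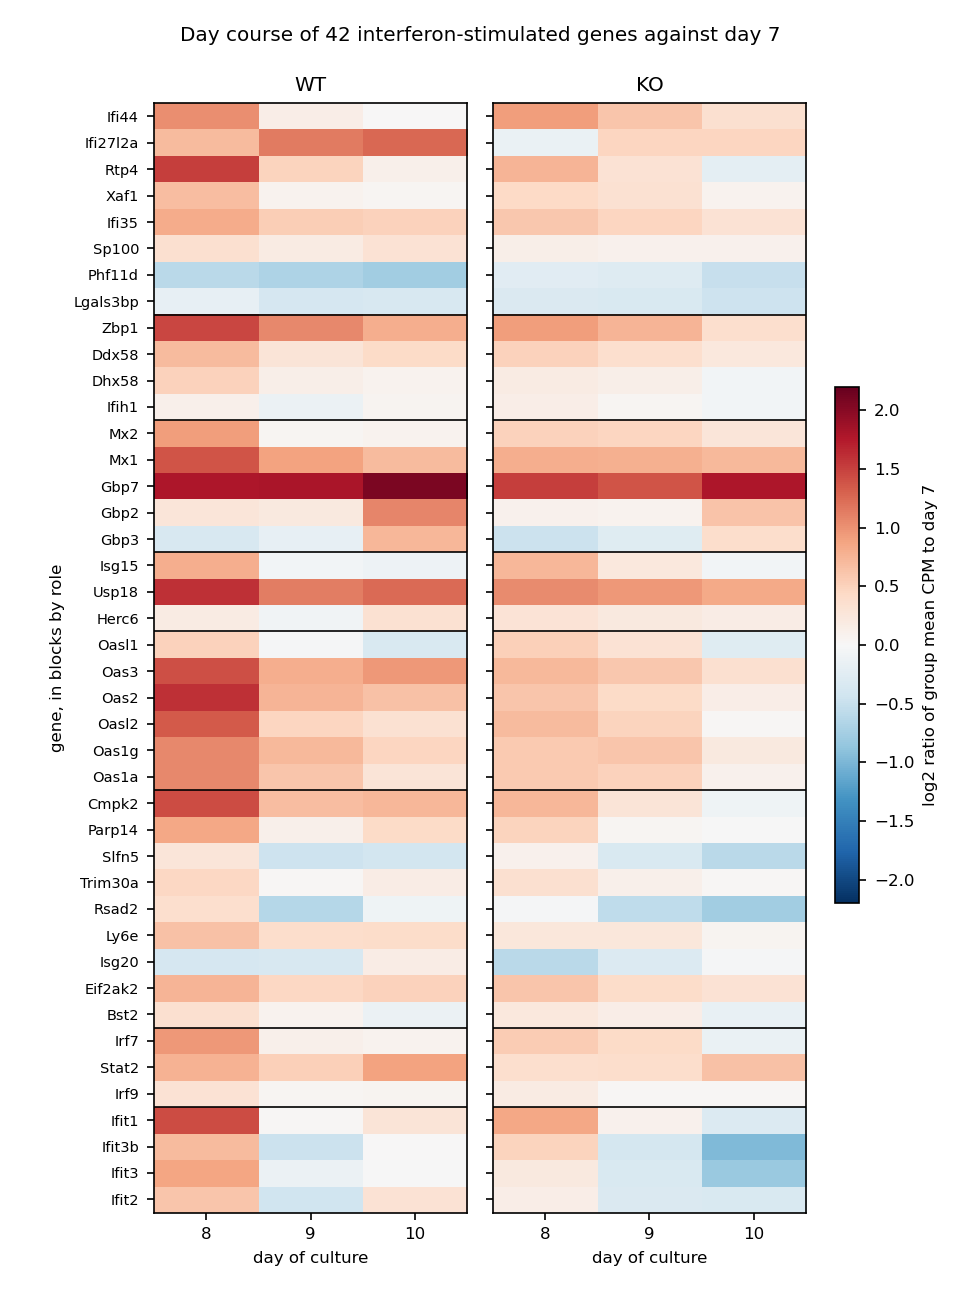
Colour shows the log2 ratio of each gene's group mean CPM on days 8, 9 and 10 to its mean on day 7, for WT (left) and KO (right), with the 42 genes in blocks by role. Gbp7 is the deepest red in both, and on day 10 Ifit3 and Rsad2 are blue in KO.

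Whether the day course differed by genotype was tested as an interaction, and edgeR called no member. For day 8 against day 7, the KO change minus the WT change was below 0 for 38 of the 42 (median -0.30, smallest edgeR adjusted p 0.693, 0.0275% of all genes called). An unadjusted p under 0.05 was reached by 7 members (Oas2, Oas1a, Mx1, Usp18, Cmpk2, Zbp1 and Stat2) and by 4.71% of all genes. For day 10 against day 7 it was below 0 for 35 of the 42 (median -0.22, smallest edgeR adjusted p 0.615, 0.0619% of all genes called), with an unadjusted p under 0.05 for Cmpk2, Ifit3, Parp14 and Rsad2 and for 6.31% of all genes. DESeq2 also called 0 members in both. The smaller rise in KO was therefore not shown for any single gene, and both interactions share the day 7 libraries in which the KO versus WT difference was large.

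Levels differed widely between members when set per length of transcript. By mean TPM over all libraries, Ly6e (765), Lgals3bp (658), Bst2 (388), Ifi27l2a (333) and Oas1a (98.0) were the most abundant. Phf11d (4.37), Ifit3b (2.46) and Ifi44 (2.07) were the least. The summed TPM of the 42 genes was 2204 ± 193 in WT and 3147 ± 616 in KO on day 7, 3542 ± 98.4 and 4198 ± 671 on day 8, 3008 ± 88.6 and 4281 ± 885 on day 9, and 3113 ± 347 and 3950 ± 883 on day 10 (SD, n = 3 each). Sums in WT varied less between mice than those in KO on each day. The most abundant genes weigh most in this sum. On log2(TPM + 1) the median over all genes also rose after day 7, as given above. It was higher in KO than in WT by 0.03, 0.04, 0.05 and 0.07 on days 7 to 10. The sums are not adjusted for these shifts.

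The interferon genes themselves were at or near 0. None of the 21 listed ligands passed the filter on low counts, 16 had no count in any library, and Ifnb1, the gene of interferon beta, had 0 to 4 counts, with a count in 10 of 24 libraries. For the receptor chains and the JAK-STAT pathway, none of 21 tested genes was called between genotypes by edgeR on any day, and medians were 0.09, 0.09, 0.08 and 0.04. With counts summed per mouse number, a test that rests on the KO numbers, 3 of the 21 were called higher (2.56% of all genes were), Socs1 among them (0.36, edgeR adjusted p 0.0202). The same test called 0 members once the KO numbers were exchanged. On day 7 the receptor chain genes Ifnar1 and Ifnar2 had 0.09 and -0.05. Socs1, a feedback inhibitor of JAK signalling, rose from a mean of 6.31 to 66.3 CPM between days 7 and 8 in WT (3.39, edgeR adjusted p 5.58e-14) and from 7.58 to 81.3 CPM in KO (3.42). Of 95 other interferon-induced genes tested, 8 were called higher and 0 lower in KO on day 7 (0.832% of all genes were called higher). None was called on the later days, and medians were 0.31, 0.14, 0.27 and 0.17 on days 7 to 10. In the sums per mouse number 32 were called higher, against the same 2.56%, and this rests on the KO numbers too. With those numbers exchanged, few of all genes were called, as given for the members. Ifi205, an interferon-induced DNA-binding protein picked for its small p, had 2.55 on day 7 (edgeR adjusted p 0.00117), with 2 to 5 counts in the WT libraries, and 0.62, 1.00 and 0.76 on the later days, not called.

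Markers of other cells and of maturation were read beside these differences. The 12 maturation markers summed to 278 to 336 CPM in WT and 381 to 601 CPM in KO on day 7, with 11 of 12 higher in KO and 1 called (Marcksl1, 0.86, edgeR adjusted p 0.0332). On days 8, 9 and 10 all 12 were higher in KO by their fitted values, with medians of 0.61, 0.75 and 0.47 and none called by edgeR. In the sums per mouse number 6 of the 12 were called higher (median 0.55), against 2.56% of all genes. With the KO numbers exchanged, that test called 1 to 5 of all genes. Their summed CPM was highest in KO in the library where most members were highest on days 7, 9 and 10 (601 and 1191 in mouse 67 and 1322 in mouse 64), and in mouse 67 on day 8 (1432). Plasmacytoid dendritic cell markers, of a cell type known for making interferon, summed to 198 to 204 CPM in WT and 185 to 203 CPM in KO on day 7, and their defining marker Siglech had 0 to 8 counts. Of the 7 tested, 1 had a higher fitted value in KO on that day and Cox6a2 was called lower (-2.29, edgeR adjusted p 0.0091). The later days had 3, 5 and 5 of 7 higher, with medians of -0.04, 0.02 and 0.04 and none called by edgeR. Neutrophil markers summed to 1765 to 3433 CPM in WT and 2362 to 5984 CPM in KO on day 7, with mouse 67 highest. On that day 8 of 10 had higher fitted values in KO (median 0.49), 6 with an unadjusted p under 0.05 and none called by edgeR. On days 8, 9 and 10 it was 7, 6 and 0 of 10, with medians of 0.12, 0.01 and -0.32 and none called, while 40, 42 and 38 of the 42 members had higher fitted values. The KO minus WT change from day 7 to day 10 was below 0 for all 10 (median -0.73), 5 with an unadjusted p under 0.05 and none called by edgeR. Of 10 macrophage markers, 7, 4, 7 and 7 had higher fitted values in KO on days 7 to 10 (medians 0.21, -0.02, 0.15 and 0.21). The edgeR test called Fcgr1 alone, on day 7 (0.46, adjusted p 0.0204). Fcgr1 is also on the list of other interferon-induced genes, and its call is counted there too. Day 7 sums of the macrophage markers overlapped, at 5074 to 5420 CPM in WT and 4718 to 5996 CPM in KO. These sums were lowest in KO mouse 67, in which 36 members had their highest KO value. The 11 dendritic cell markers had medians of 0.35, 0.26, 0.23 and 0.09 on days 7 to 10, none called by edgeR, and 2 called higher in the sums per mouse number, with the same limits as for the maturation markers. Itgax went the other way, at 1089, 1315 and 1068 CPM in WT and 993, 871 and 952 CPM in KO on day 7. Its groups did not overlap on that day or on day 9, with KO lower, and overlapped on days 8 and 10. Mast cell and basophil markers summed to 65.0 to 82.2 CPM in WT and 74.8 to 232 CPM in KO on day 7, with mouse 67 highest. All 6 had higher fitted values in KO on days 7, 8 and 9 and 3 of 6 on day 10, with medians of 0.89, 0.46, 0.61 and 0.05. The edgeR test called none of them, and 4 had an unadjusted p under 0.05 on day 7. Of 7 lymphocyte markers tested, 3, 2, 3 and 6 had higher fitted values in KO on days 7 to 10, with medians of -0.25, -0.32, -0.38 and 0.30. None was called by edgeR on any day, and 1 was called higher in the sums per mouse number, with the same limits. They summed on day 10 to 3.45 to 5.21 CPM in WT and 5.03 to 10.6 CPM in KO, highest in mouse 64. The part of maturation state or of neutrophil, macrophage, dendritic, mast cell, basophil or lymphocyte content in the members' differences was not tested.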

How the data were processed

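RNA was sequenced from 24 BMDC libraries, 3 per genotype and day. Per the submitters' processing notes the tools were FastQC 0.11.9, STAR 2.6.1 and DESeq2 1.22.2, with mm10; counter, strand setting and annotation are not given in the sources used here. Per the labels, stranded poly(A) libraries came from more than 1 kit, with no kit named per library. The authors deposited raw read counts per gene, used for all main tests, and TPM values, used for levels per length and as an alternative. Replicates are separate mice per the labels.

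Counts were fitted with edgeR 4.0.16 (R 4.3.3), TMM scaling, filterByExpr (14535 of 28655 genes with a count kept), 8 group means and 16 residual degrees of freedom; p-values were adjusted over all tested genes at 0.05. Log2 CPM used a prior count of 2. Alternatives used DESeq2 1.42.0, limma 3.58.1 on log2(TPM + 1), other filters and scalings, left-out mouse numbers and, with limma voom, a replicate block. On simulated counts for day 7 (14535 genes, 50 changed per fold), 64% of 1.5-fold and 86% of 2-fold changes were recovered, and 11 unchanged genes were called. Changed genes had a mean count of at least 50, and libraries were drawn independently with no mouse effect. Recovery at lower counts or with recurring mice was not simulated. Positions are GENCODE M21 (GRCm38); 55394 gene IDs matched ignoring the version.

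Members and lists were chosen with earlier results of these data known. Named members were the 8 largest and 3 smallest mean daily differences, the 4 largest rises and falls from day 7 to day 10 per genotype, the 5 highest and 3 lowest mean TPM, the regulators and sensors, and near-identical pairs; members called between groups were added after their values were seen. Same-numbered WT libraries deviated together (correlations 0.0148 to 0.608), same-numbered KO libraries did not (-0.785 to 0.782).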

Additional observations from a re-analysis of the deposited data

How the results depend on the processing

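Counts of called members are given in the order of the comparisons named. Day 7 KO versus WT (12, among 211 genes called) became 23 with DESeq2's Wald test (among 523). Without a filter on low counts it became 19 (among 340 of 28655 genes tested). It became 5 on log2(TPM + 1) (among 120) and 7 with limma voom and the mouse number as a replicate block (among 145). Both of these also changed the test. Day 9 (0) became 15 with DESeq2 (among 98) and 16 without the filter (among 90 of 28655). Day 10 (0) became 2 without the filter (among 43 of 28655). In WT, day 9 versus day 8 (13 lower, among 785) became 31 with only the groups compared (30 lower and 1 higher, among 2123). It became 4 on log2(TPM + 1) (among 521) and 4 without the libraries high in Ddx3y (among 565). With only the groups compared and on log2(TPM + 1), day 10 versus day 9 (2, among 523) became 5 and 1 (among 774 and 380). In KO, day 9 versus day 8 and day 10 versus day 9 (0 each) became 1 each with DESeq2 (among 898 and 207). They became 1 each without the filter (among 597 and 49). Day 10 versus day 9 became 2 without the libraries high in Ddx3y (among 81). The averaged difference (24) became 0 under each of the 4 orders of exchanged KO numbers run; this and leaving out the Ddx3y libraries were chosen after seeing the data. The causes were not tested.

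Leaving out 1 mouse number gave 0 to 23, 0 to 0, 0 to 2 and 0 to 1 for KO versus WT on days 7 to 10 and 1 to 34 for the average. In WT it gave 21 to 33 (day 8 versus 7), 0 to 20 (9 versus 8), 0 to 3 (10 versus 9) and 8 to 22 (10 versus 7). In KO it gave 11 to 25, 0 to 3, 0 to 4 and 8 to 17, and both interactions stayed at 0. With limma voom and the replicate block, other counts stayed within 1.5 times, 28 and 9 in WT for days 8 and 9 and 22 in KO for day 8. The block's estimated correlation was 0.0046 over both genotypes. Same-numbered WT libraries had correlations of 0.0148 to 0.608, so pairing within WT alone was not tested by this block. Of 1987 values of single called members under an alternative, 1527 kept their call, 460 lost it and 0 changed sign. These were members already called, refitted on the same libraries or part of them, so a kept sign was likely beforehand. The median KO versus WT difference stayed positive in all 14 settings on each day, at 0.46 to 0.66, 0.17 to 0.36, 0.43 to 0.62 and 0.15 to 0.50. With 3 mice per group, day 7 simulations missed changes of 1.5-fold more often than larger ones.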
